A study of Homo sapiens with 6 samples.

Results

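The genes described here encode the aminoacyl-tRNA synthetases, the enzymes that load each transfer RNA with its amino acid, and the proteins that hold several of these enzymes together. They were chosen by name and function, with earlier results of these data known. They are 39 of the 57773 genes in the expression table and comprise 20 cytosolic enzymes, 16 mitochondrial enzymes and 3 scaffold proteins (AIMP1, AIMP2 and EEF1E1). All 39 were measured and passed the filter on low values. The cells were H460, a human non-small-cell lung cancer line, and the study asked which genes change when the long noncoding RNA *HKlincR1* (AC093323.3) is depleted. One group of 3 libraries (si*HKlincR1*) came from cells transfected with an siRNA against *HKlincR1*, and the other group of 3 (siNT) from cells given a non-targeting siRNA. Both groups received 50 nM siRNA for 48 hours in the same culture medium, and polyA RNA of biological replicates was sequenced. The study's methods name 1 siRNA sequence for these libraries, so the comparison rests on 1 siRNA in 1 cell line.

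Cytosolic and mitochondrial protein synthesis use separate enzymes for most amino acids, all encoded in the nucleus, and the names of the mitochondrial ones end in 2. GARS and KARS (glycine and lysine) each supply both compartments from 1 gene, and EPRS joins the glutamate and proline enzymes in 1 protein. A part of the cytosolic enzymes sits in the multi-synthetase complex, assembled on AIMP1, AIMP2 and EEF1E1, while the others act as free enzymes. When an amino acid runs short, uncharged tRNA activates the kinase GCN2 (EIF2AK4), which phosphorylates the initiation factor eIF2. Translation of the transcription factor ATF4 then rises, and many cytosolic synthetase genes are known ATF4 targets through the amino acid response element.

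The promoters are shown first because the changes reported further on are also grouped by them. The motif was chosen with earlier results of these data known. Each promoter was the RefSeq sequence from 250 bases before to 50 bases after the annotated start (GRCh38.p14), available for 33 of the 39 genes. DARS, LARS, VARS, YARS, AARS2 and VARS2 were not matched. The core of the amino acid response element, TGATGNAA, was searched on both strands. It occurred in 7 of the 16 cytosolic promoters (43.8%), in 1 of 14 mitochondrial promoters (7.14%) and in none of the 3 scaffold promoters, against 4.46% of all 27305 promoters. The stricter form TGATGCAA, contained in the first motif, occurred in 6 of the 16 cytosolic promoters (37.5%), in no mitochondrial promoter and in 1.08% of all promoters. The matches are printed below within 30 bases on the gene's own strand, with capitals marking TGATGNAA or its reverse complement TTNCATCA.
AARS, chr16:70289675-70289704, minus strand: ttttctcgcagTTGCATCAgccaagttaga
CARS, chr11:3057407-3057436, minus strand: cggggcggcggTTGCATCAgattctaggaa
GARS, chr7:30594834-30594863, plus strand: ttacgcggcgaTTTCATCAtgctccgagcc
IARS, chr9:92293692-92293721, minus strand: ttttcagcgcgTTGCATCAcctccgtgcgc
MARS, chr12:57488053-57488082, plus strand: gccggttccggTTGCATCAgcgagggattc
NARS, chr18:57621804-57621833, minus strand: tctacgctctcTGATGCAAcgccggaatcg
TARS, chr5:33440956-33440985, plus strand: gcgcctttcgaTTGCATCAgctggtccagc
YARS2, chr12:32756076-32756105, minus strand: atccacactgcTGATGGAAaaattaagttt

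In 6 of these 8 sequences the match began within 35 bases of the annotated start. The exceptions were AARS, at position -187, and YARS2, the mitochondrial gene, at position -197. GARS and YARS2 met only the looser motif. These are matches of letters in a window, and no binding was measured.

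The libraries held 24980280 to 30521000 reads, worked back from the deposited RPKM values (reads scaled to gene length and library size). *HKlincR1* was at 3.62, 3.47 and 3.83 RPKM in the siNT libraries and at 0.563, 0.628 and 0.390 RPKM in the si*HKlincR1* libraries, and the groups did not overlap. Its log2 fold change was -2.59 (adjusted p by limma 0.00245 unblocked and 0.0138 blocked). Of 5 epithelial markers, KRT8, KRT18 and KRT19 were at 28.1 to 88.5 RPKM in every library, while EPCAM was at most 0.110 RPKM and CDH1 was at 0 in 5 of the 6 libraries. The summed RPKM of the leukocyte markers was at most 0.228, that of the endothelial markers at most 0.0212 and that of the fibroblast markers 0.629 to 1.57. Replicate 3 stood apart from replicates 1 and 2 in both groups for the cytosolic enzymes. The changes of the leading cytosolic enzymes are therefore also given without the replicate 3 libraries. That exclusion was decided after these values were seen and leaves 2 libraries per group, so its adjusted p values add no independent support. RNA from a whole culture cannot tell a change within every cell from a change in the share of cells with high levels.

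Changes were tested with limma on log2(RPKM + 0.1) across the 15451 genes whose mean reached 0.5 RPKM. Calls needed both an adjusted p under 0.05 and a change of more than 1.5-fold. Across genes, deviations of same-numbered libraries from their group means correlated at 0.137 to 0.266. The differently numbered siNT replicate 1 and si*HKlincR1* replicate 2 reached 0.113. The labels do not say whether same-numbered libraries were prepared together. Each result is therefore given unblocked and blocked, where the block is the replicate number and confines the comparison to same-numbered pairs.

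After the knockdown 8 cytosolic synthetase transcripts rose in the blocked fit, and no mitochondrial one passed in either fit. The median log2 fold change of the 20 cytosolic enzymes was 0.23 (a fold of 1.17), with a range from -0.10 to 0.66 and values above 0 for 18 of them. The same median was 0.01 for the 16 mitochondrial enzymes, 0.15 for the 3 scaffold proteins and 0.00 for all tested genes. Without the block no cytosolic enzyme was called by limma (lowest adjusted p = 0.215), and 0.00647% of all tested genes, a single gene, was called higher. At an unadjusted p under 0.05, 8 of the 20 were higher, against 7.04% of all tested genes. Applied to the recovered reads, voom also called 0 of the 20. With the block, 3 cytosolic enzymes were called higher (SARS, GARS and CARS), against 0.511% of all tested genes. By the adjusted p alone, with no fold threshold, 8 of the 20 rose with the block (SARS, GARS, CARS, MARS, AARS, EPRS, IARS and NARS), against 1.2% of all tested genes. None of the 39 fell by that rule, which 1.72% of all tested genes met in the lower direction.

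**Figure D1:**
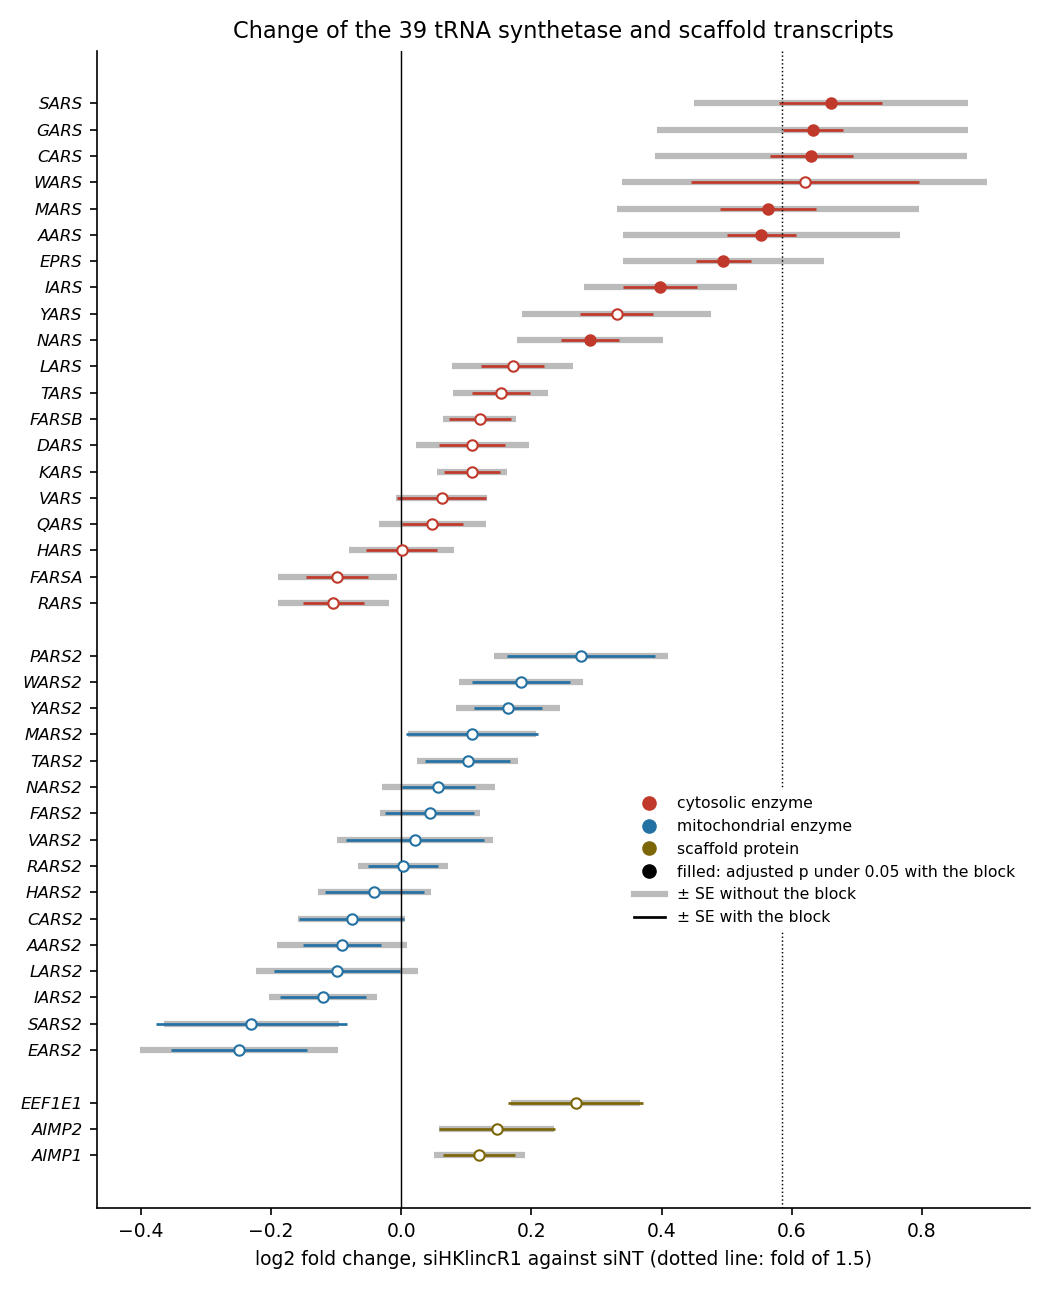
Fitted log2 fold change of each of the 39 transcripts, si*HKlincR1* against siNT (points), with ± 1 SE from limma without the replicate block (grey bars) and with it (coloured bars), for cytosolic enzymes (red), mitochondrial enzymes (blue) and scaffold proteins (brown). Filled points have an adjusted p under 0.05 with the block; the 8 filled points are all cytosolic enzymes, with log2 fold changes from 0.29 to 0.66, and the dotted line marks a fold of 1.5.

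The count of calls depended on the replicate 3 libraries, and leaving out both was decided after their values were seen. Excluding both replicate 3 libraries, 4 cytosolic enzymes were called without a block (AARS, GARS, MARS and SARS), against 1.17% of all genes tested in that fit. The block gave the same 4, against 87 of all 15505 genes tested in that blocked fit. Leaving out only si*HKlincR1* replicate 3 gave 6 calls (AARS, EPRS, GARS, MARS, SARS and WARS), against 1.32% of all genes tested. Leaving out any other single library gave 0. The median of the cytosolic enzymes ranged from 0.16 without siNT replicate 3 to 0.32 without si*HKlincR1* replicate 3.

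Glycyl-tRNA synthetase, GARS (ENSG00000106105, chr7:30620149-30673649, GRCh37), was the most abundant cytosolic enzyme in the siNT libraries. It was at 122, 124 and 79.8 RPKM in siNT replicates 1, 2 and 3 and at 187, 200.0 and 120 RPKM in si*HKlincR1* replicates 1, 2 and 3. Replicate 3 of si*HKlincR1* lay below the first and second siNT libraries, so the groups overlapped, yet each si*HKlincR1* library was 1.502 to 1.61 times the siNT library of the same number. The log2 fold change was 0.63 (SE 0.24 without and 0.046 with the block), with an adjusted p by limma of 0.280 unblocked and 0.0138 blocked. Excluding both replicate 3 libraries it was 0.66 (adjusted p by limma 0.0206 unblocked and 0.0431 blocked).

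Seryl-tRNA synthetase, SARS (ENSG00000031698, chr1:109756540-109780804), had the largest fold change of the 39 in the fit of all 6 libraries. WARS was above SARS without both replicate 3 libraries and without si*HKlincR1* replicate 3 alone. Both CARS and GARS were above SARS without siNT replicate 1 or si*HKlincR1* replicate 2. SARS was at 38.9, 41.5 and 30.7 RPKM in siNT and at 62.2, 74.3 and 42.5 RPKM in si*HKlincR1*. All 3 si*HKlincR1* libraries were above all 3 siNT libraries (p = 0.10 by an exact permutation test, two-sided, which 3 libraries against 3 cannot go below). Its mean went from 37.05 ± 5.67 to 59.7 ± 16.1 RPKM (mean ± SD of 3 libraries), a log2 fold change of 0.66 (adjusted p by limma 0.236 unblocked and 0.0328 blocked). Without both replicate 3 libraries the change was 0.76 (adjusted p by limma 0.0303 unblocked and 0.0431 blocked).

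Cysteinyl-tRNA synthetase, CARS (ENSG00000110619, chr11:3022152-3078843), was the least abundant cytosolic enzyme. Its levels were 9.06, 8.96 and 5.40 RPKM in siNT and 13.3, 13.7 and 9.04 RPKM in si*HKlincR1*. Replicate 3 of si*HKlincR1* fell within the siNT range, while the ratios within same-numbered pairs were 1.47, 1.53 and 1.67. The log2 fold change was 0.63 (adjusted p by limma 0.281 unblocked and 0.0249 blocked), and excluding both replicate 3 libraries it was 0.58, just under the fold threshold.

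Tryptophanyl-tRNA synthetase, WARS, was at 49.5, 50.5 and 41.5 RPKM in siNT and at 75.3, 108 and 46.2 RPKM in si*HKlincR1*. It was the most variable of the large changes and had ratios of 1.52, 2.15 and 1.11 within the pairs. Its log2 fold change of 0.62 passed neither test (adjusted p by limma 0.325 unblocked and 0.111 blocked). It was 0.85 without both replicate 3 libraries (adjusted p by limma 0.0550 unblocked and 0.0545 blocked), and from 0.33 to 0.94 when 1 library at a time was left out, the highest without si*HKlincR1* replicate 3. WARS is also known as an interferon-induced gene.

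Methionyl-tRNA synthetase, MARS, which charges both initiator and elongator tRNA, was at 50.2, 50.8 and 36.2 RPKM in siNT and at 76.9, 82.6 and 47.0 RPKM in si*HKlincR1*. Alanyl-tRNA synthetase, AARS, was at 69.0, 69.0 and 48.7 RPKM in siNT and at 104, 106 and 66.6 RPKM in si*HKlincR1*. For both genes only si*HKlincR1* replicate 3 lay within the siNT range. MARS had a log2 fold change of 0.56 (adjusted p by limma 0.302 unblocked and 0.0418 blocked) and AARS one of 0.55 (adjusted p by limma 0.286 unblocked and 0.0225 blocked), both under the fold threshold in the fit of all 6 libraries. Excluding both replicate 3 libraries they were 0.66 and 0.60 and were called (limma adjusted p = 0.0204 and 0.0183).

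EPRS, the joined glutamyl-prolyl enzyme of the multi-synthetase complex, was at 96.2, 99.6 and 74.6 RPKM in siNT and at 135, 143 and 104 RPKM in si*HKlincR1*. Isoleucyl-tRNA synthetase, IARS, was at 72.8, 72.2 and 63.5 RPKM in siNT and at 98.1, 101 and 77.0 RPKM in si*HKlincR1*. In both genes the groups did not overlap (exact two-sided permutation test, p = 0.10 each). EPRS had a log2 fold change of 0.49 (adjusted p by limma 0.230 unblocked and 0.0175 blocked) and IARS one of 0.40 (adjusted p by limma 0.215 unblocked and 0.0444 blocked). With both replicate 3 libraries left out these were 0.51 for EPRS (adjusted p by limma 0.0267 unblocked and 0.0453 blocked) and 0.46 for IARS (0.0265 and 0.0494).

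Asparaginyl-tRNA synthetase, NARS, was the eighth enzyme to pass the adjusted p with the block. Its levels of 63.9, 65.0 and 53.9 RPKM in siNT and 80.1, 79.0 and 64.7 RPKM in si*HKlincR1* overlapped in replicate 3 of si*HKlincR1* alone. The log2 fold change was 0.29 (adjusted p by limma 0.287 unblocked and 0.0463 blocked). Excluding both replicate 3 libraries the adjusted p by limma was 0.0414 unblocked, while the blocked value of 0.0590 no longer passed.

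**Figure D2:**
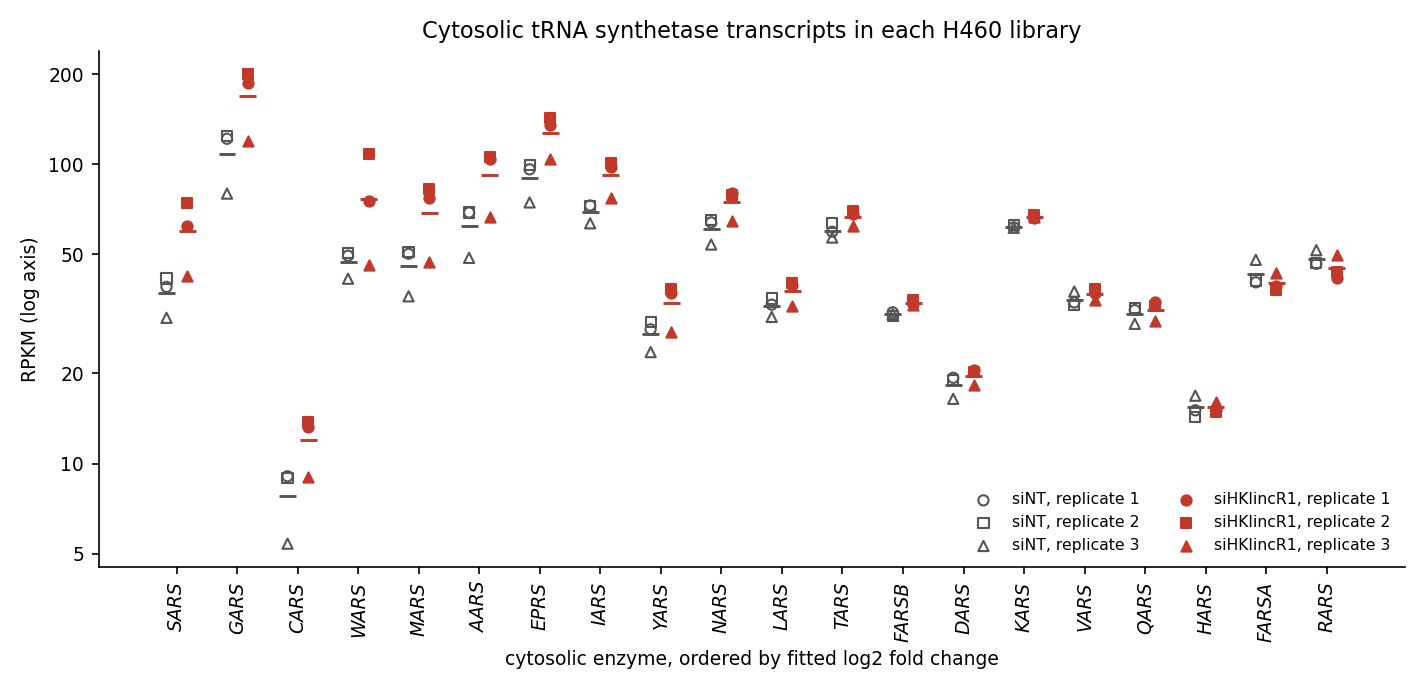
RPKM on a log axis of the 20 cytosolic synthetase transcripts in each library, siNT (open grey) and si*HKlincR1* (filled red), with the replicate number shown by the symbol and the group mean by a bar. Genes are ordered by fitted log2 fold change; for GARS the siNT libraries lie at 122, 124 and 79.8 RPKM and the si*HKlincR1* libraries at 187, 200.0 and 120 RPKM, and replicate 3 (triangles) is the lowest of its group in every one of the first 12 genes from SARS to TARS.

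The other 11 cytosolic enzymes did not pass in either fit. Tyrosyl-tRNA synthetase, YARS, came closest, with a log2 fold change of 0.33 (adjusted p by limma 0.317 unblocked and 0.0537 blocked). Excluding both replicate 3 libraries its log2 fold change was 0.38 (adjusted p by limma 0.0361 unblocked and 0.0509 blocked). LARS (leucine), TARS (threonine), FARSB (the beta subunit of the phenylalanine enzyme), DARS (aspartate), KARS, VARS (valine) and QARS (glutamine) had log2 fold changes from 0.05 to 0.17. HARS (histidine) was at 15.4 ± 1.31 RPKM in siNT and 15.4 ± 0.618 RPKM in si*HKlincR1* (mean ± SD of 3 libraries), a log2 fold change of 0.00. FARSA, the alpha subunit of the phenylalanine enzyme, had a log2 fold change of -0.10, as did RARS (arginine). Their values were below the siNT library of the same number in all 3 pairs, so FARSA and FARSB, which work as 1 tetramer, had values of opposite sign, neither of which passed the test.

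Across the 20 cytosolic enzymes, 5 had groups that did not overlap, all with si*HKlincR1* higher, against 10.1% of all tested genes. Besides SARS, EPRS and IARS these were KARS (61.3 to 62.8 RPKM in siNT and 66.1 to 67.7 RPKM in si*HKlincR1*) and FARSB (31.2 to 32.0 and 33.8 to 35.2 RPKM), which had small changes and little spread. In same-numbered pairs, 16 of the 20 were higher in all 3 pairs, against 24% of all tested genes, and 2 of the 20 were lower in all 3, against 25.2%. The median log2 change of the cytosolic enzymes was 0.27 in the first pair, 0.23 in the second and 0.16 in the third.

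The sum over all cytosolic enzymes was 975, 992 and 838 RPKM in the siNT libraries and 1266, 1347 and 993 RPKM in the si*HKlincR1* libraries. The lowest si*HKlincR1* sum, in replicate 3, was level with the highest siNT sum. The mitochondrial enzymes summed to 240, 226 and 229 RPKM in siNT and to 228, 206 and 236 RPKM in si*HKlincR1*, which overlapped. The ratio of the cytosolic to the mitochondrial sum was 4.06, 4.38 and 3.66 with siNT and 5.54, 6.54 and 4.21 with si*HKlincR1*. The groups overlapped here too, in replicate 3 of si*HKlincR1*. A large part of the mitochondrial sum was IARS2 alone, at 126, 117 and 114 RPKM in siNT and 112.5, 99.6 and 118 RPKM in si*HKlincR1*.

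No mitochondrial enzyme was called without or with the block (lowest adjusted p by limma 0.345 unblocked and 0.137 blocked). None of the 16 had an unadjusted p under 0.05, and voom called 0 as well. Their log2 fold changes ran from -0.25 to 0.28, with 9 of the 16 above 0. The largest was that of prolyl-tRNA synthetase, PARS2, at 1.89, 2.04 and 1.52 RPKM in siNT and 2.10, 2.36 and 2.16 RPKM in si*HKlincR1*. PARS2 had groups that did not overlap and a log2 fold change of 0.28 (adjusted p by limma 0.345 unblocked and 0.203 blocked). The glutamate enzyme, EARS2, was at 9.44, 9.90 and 10.9 RPKM in siNT and 8.45, 6.83 and 10.5 RPKM in si*HKlincR1*, lower in all 3 pairs but with overlapping groups and a log2 fold change of -0.25 (adjusted p by limma 0.436 unblocked and 0.207 blocked). PARS2 and EARS2 are the mitochondrial counterparts of the joined cytosolic enzyme EPRS.

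SARS2, the mitochondrial serine enzyme, was at 1.75, 1.67 and 1.45 RPKM in siNT and 1.24, 1.34 and 1.52 RPKM in si*HKlincR1*. It was lower in the first and second pairs and higher in the third (log2 fold change -0.23, adjusted p by limma 0.418 unblocked and 0.375 blocked). WARS2 (tryptophan) was at 4.17, 3.83 and 3.54 RPKM in siNT and 4.70, 4.13 and 4.32 RPKM in si*HKlincR1*, a log2 fold change of 0.18 with overlapping groups. YARS2 (tyrosine), the mitochondrial gene with the promoter motif, was at 11.2, 10.1 and 11.3 RPKM in siNT and 12.7, 11.3 and 12.6 RPKM in si*HKlincR1*, higher in all 3 pairs. Its log2 fold change was 0.16 (adjusted p by limma 0.351 unblocked and 0.137 blocked). IARS2 (isoleucine) had the highest siNT mean of all 39, though GARS was above it in siNT replicate 2 and GARS and EPRS had higher means in si*HKlincR1*. Its levels were 119 ± 6.26 RPKM in siNT and 110 ± 9.31 RPKM in si*HKlincR1* (mean ± SD of 3 libraries). The other 10 mitochondrial enzymes were at 2.57 to 15.5 RPKM in siNT and had log2 fold changes from -0.10 to 0.11. Of the 16, 2 had groups that did not overlap with si*HKlincR1* higher, against 10.1% of all tested genes. In all 3 pairs 6 of the 16 were higher, against 24% of all tested genes, and 2 were lower, against 25.2%.

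Of the scaffold proteins, EEF1E1 (AIMP3) was at 7.30, 7.18 and 8.66 RPKM in siNT and 9.92, 9.39 and 8.58 RPKM in si*HKlincR1*. It was higher in the first and second pairs and level in the third, with a log2 fold change of 0.27 (adjusted p by limma 0.272 unblocked and 0.186 blocked). AIMP2 was at 25.4, 26.2 and 29.2 RPKM in siNT and 30.04, 32.3 and 27.3 RPKM in si*HKlincR1*, likewise reversed in the third pair (log2 fold change 0.15). AIMP1 was at 14.0, 14.0 and 13.5 RPKM in siNT and 14.8, 16.1 and 14.3 RPKM in si*HKlincR1*, with no overlap but a log2 fold change of 0.12. No scaffold transcript was called in either fit. Their median was 0.15 in all libraries and 0.27 without both replicate 3 libraries. In that exclusion EEF1E1 alone passed the adjusted p, and only unblocked (adjusted p by limma 0.0397 unblocked and 0.057 blocked). Its log2 fold change of 0.41 there stayed under the fold threshold.

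For 13 amino acids both a cytosolic and a mitochondrial enzyme were in the set, so the pair could be compared within each library. Per kilobase, the cytosolic transcript was the more abundant for 11 of the 13 in siNT, by the mean log2 ratio. The exceptions were isoleucine, where IARS2 was higher, and histidine, where the levels were equal within their spread. Both depend on the gene lengths worked back from RPKM, which can exceed the length of a single transcript. These were 7401 bases for IARS and 4162 for IARS2, and 8436 for HARS and 3422 for HARS2. In siNT replicate 1, IARS had 14961 reads and IARS2 14598, while HARS had 3527 and HARS2 1588. After the knockdown the log2 ratio of cytosolic to mitochondrial RPKM was higher for 12 of the 13, and lower only for arginine. It was higher in all 3 same-numbered pairs for 8 amino acids and lower in all 3 for arginine.

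The largest shift of the ratio was for serine, where log2(SARS/SARS2) went from 4.42 ± 0.12 to 5.31 ± 0.52 (SD, n = 3), a difference of 0.89. For cysteine it went from 0.66 ± 0.51 to 1.37 ± 0.29, and for isoleucine from -0.78 ± 0.076 to -0.26 ± 0.32. These 3 had no overlap between groups (exact two-sided permutation test, p = 0.10 each, adjusted over the 13 comparisons 0.433). None of the 13 passed, since the smallest p in this design is 0.10 and the adjusted values were 0.433 to 0.7. For alanine the difference was 0.64, and it was almost the same in each pair (0.64, 0.70 and 0.59), although the groups overlapped. The tryptophan ratio differed by 0.44 on average but by 0.44, 1.00 and -0.12 in the pairs.

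**Figure D3:**
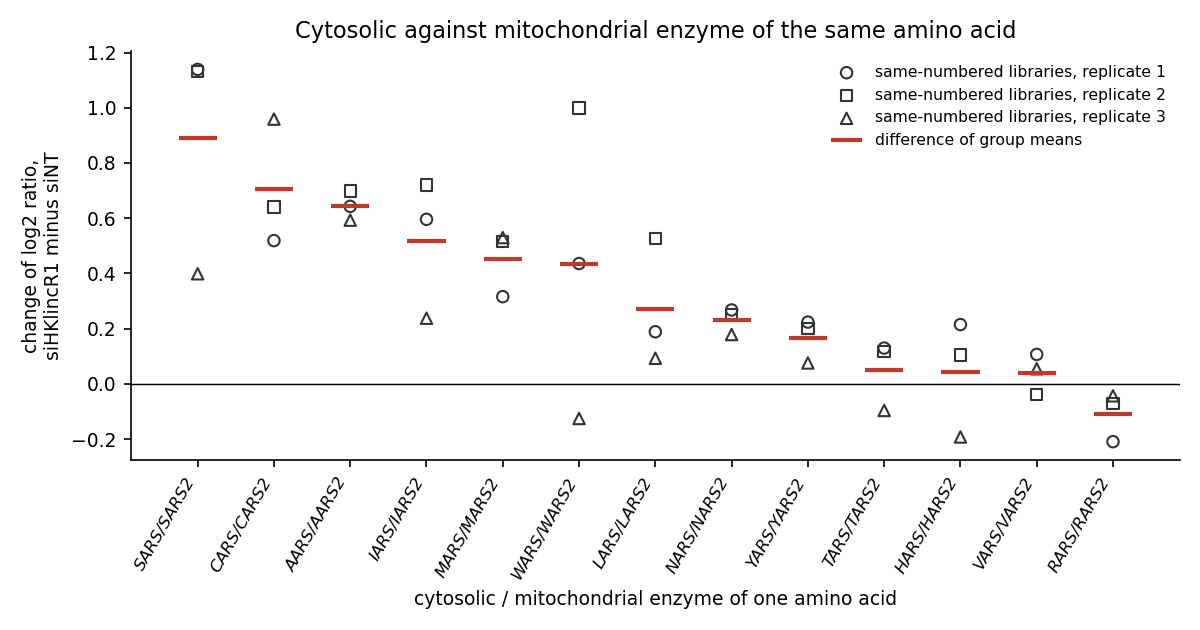
Change after the knockdown of the log2 ratio of cytosolic to mitochondrial RPKM for 13 amino acids, within each pair of same-numbered libraries (open symbols) and as the difference of the group means (red bars). The bars run from 0.89 for SARS/SARS2 to -0.11 for RARS/RARS2, and 12 of the 13 lie above 0.

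The cytosolic enzymes fall into structural groups that played no part in their choice. The 8 enzymes of the multi-synthetase complex had a median log2 fold change of 0.14, and 3 of them passed the blocked adjusted p (EPRS, IARS and MARS). The 12 free enzymes had a median of 0.31, and 5 passed (AARS, CARS, GARS, NARS and SARS). By the fold of the active site, the 9 class I enzymes had a median of 0.33 and the 10 class II enzymes one of 0.14, with EPRS, which holds a domain of each class, at 0.49. These medians were not tested against each other, and 1.2% of all tested genes passed the blocked adjusted p in the higher direction. The ranges overlapped in both splits.

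By promoter, the 7 cytosolic enzymes with TGATGNAA in the sequences printed above had a median log2 fold change of 0.55. They ranged from 0.15 (TARS) to 0.63 (GARS). Of these 7, 6 passed the blocked adjusted p in the higher direction, against 1.2% of all tested genes. The 9 cytosolic enzymes with a promoter sequence but no match had a median of 0.11 and a range from -0.10 to 0.66, and 2 of them, SARS and EPRS, passed. SARS and WARS thus lacked these letters in the window searched. The motif was chosen with earlier results of these data known, and the 2 groups were not tested against each other.

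The spread between replicates was itself shared by these enzymes. In the siNT group, replicate 3 was below the mean of replicates 1 and 2 for 15 of the 20 cytosolic enzymes, with a median shift over all 20 of -0.21 on the log2 scale. In the si*HKlincR1* group it was below for 17 of 20, with a median shift of -0.27, and 15 enzymes were lower in both groups. CARS shifted by -0.73 in siNT and -0.57 in si*HKlincR1*, GARS by -0.62 and -0.69, AARS by -0.50 and -0.66, and MARS by -0.48 and -0.76. RARS, FARSA and HARS were higher in replicate 3 of both groups. Across the 20 enzymes the shifts of the groups had a Pearson r of 0.840 and a Spearman rho of 0.905, against 0.185 and 0.094 across the 16 mitochondrial enzymes and 0.266 and 0.412 across all 15451 tested genes. These are correlations across genes measured in the same libraries, and genes are not independent replicates. The mitochondrial medians were -0.02 and 0.07. Total reads of the replicate 3 libraries, 24980280 in siNT and 29926414 in si*HKlincR1*, were the lowest and the second highest of the 6. What part any difference between these libraries had in the results was not tested.

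**Figure D4:**
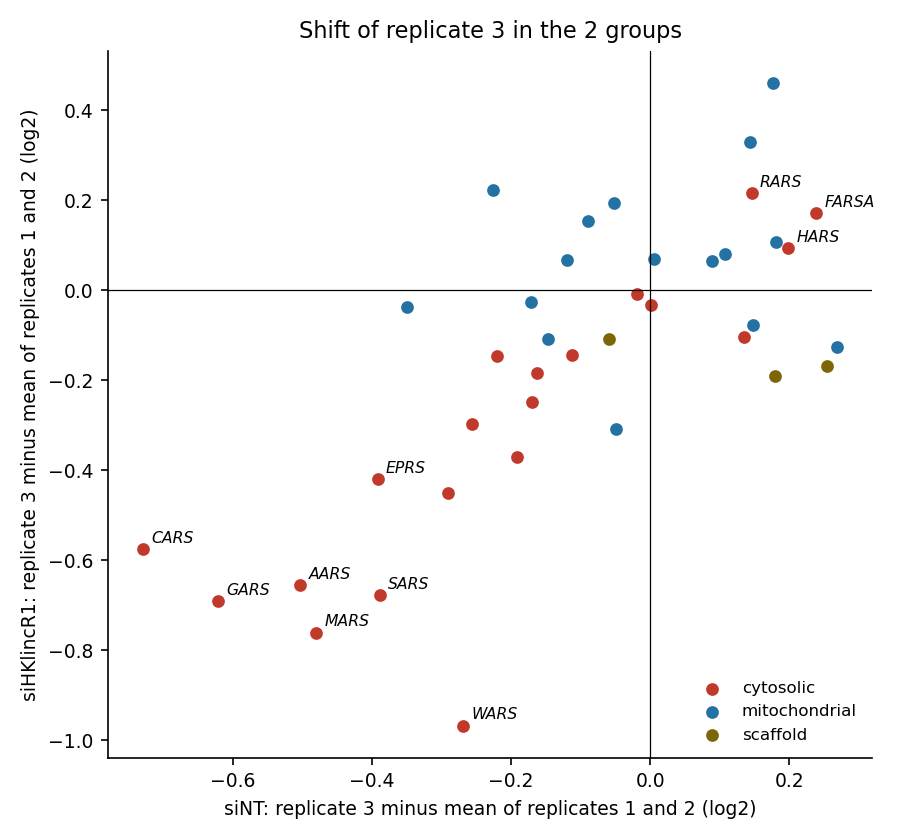
Shift of replicate 3 from the mean of replicates 1 and 2, in log2(RPKM + 0.1), in the siNT group (x axis) and the si*HKlincR1* group (y axis) for the cytosolic enzymes (red), mitochondrial enzymes (blue) and scaffold proteins (brown). Of the 20 cytosolic enzymes 15 lie below 0 on both axes, among them CARS (-0.73 and -0.57) and GARS (-0.62 and -0.69), while 4 of the 16 mitochondrial enzymes do.

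Genes next to tRNA charging were examined as lists written with earlier results of these data known. The ATF4 pathway list, with ATF4, the transcription factors DDIT3, CEBPB and ATF3, the pseudokinase TRIB3 and the effectors CHAC1, SESN2 and ASNS, had a median log2 fold change of 0.80, and all 8 were higher in all 3 pairs, against 24% of all tested genes. None was called without the block (3 of the 8 had an unadjusted p under 0.05 and were higher, against 7.04% of all tested genes, and voom called 0). With the block 3 were called (ASNS, DDIT3 and TRIB3), against 0.511% of all tested genes. CHAC1, which degrades glutathione, was at 26.1, 27.3 and 2.11 RPKM in siNT and 31.9, 34.3 and 29.9 RPKM in si*HKlincR1*. Its log2 fold change was 1.46 (adjusted p by limma 0.439 unblocked and 0.266 blocked) with the low siNT replicate 3, and 0.31 excluding both replicate 3 libraries. ASNS, which makes asparagine, was at 43.5, 43.4 and 14.5 RPKM in siNT and 96.1, 109 and 39.7 RPKM in si*HKlincR1*. It changed 2.47-fold (adjusted p by limma 0.298 unblocked and 0.0124 blocked). SESN2, an inhibitor of mTORC1 signalling, was at 17.1, 16.7 and 5.48 RPKM in siNT and 26.7, 31.1 and 19.6 RPKM in si*HKlincR1*, a log2 fold change of 1.12 (adjusted p by limma 0.286 unblocked and 0.0676 blocked). Replicate 3 was lower for this list too, with a median shift of -1.04 in siNT and -0.56 in si*HKlincR1*. Excluding both replicate 3 libraries its median was 0.54. Without the block 4 of the 8 were then called higher, against 1.17% of all genes tested in that fit.

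Among 11 genes that sense uncharged tRNA or act on eIF2, the median log2 fold change was -0.03. None was called in either fit. By limma without the block, 1 of the 11 was higher (EIF2S2) and 1 lower (EIF2AK1) at an unadjusted p under 0.05. Over all 15451 tested genes, 7.04% were higher and 1420 genes lower by that rule. EIF2S2, named after its values were seen, had a log2 fold change of 0.22 (adjusted p by limma 0.223 unblocked and 0.0681 blocked). PPP1R15A (GADD34), which recruits the eIF2 phosphatase, was at 14.4, 14.1 and 9.94 RPKM in siNT and 25.0, 43.2 and 11.3 RPKM in si*HKlincR1*. Its log2 fold change of 0.86 did not pass (adjusted p by limma 0.364 unblocked and 0.126 blocked), and the list had 1 call once si*HKlincR1* replicate 3 was dropped. IMPACT, an inhibitor of GCN2, had a log2 fold change of 0.34 (adjusted p by limma 0.424 unblocked and 0.109 blocked). The heme-regulated eIF2 kinase EIF2AK1 was at 34.2, 35.7 and 35.7 RPKM in siNT and 28.3, 27.1 and 29.2 RPKM in si*HKlincR1*, a log2 fold change of -0.32. With all 6 libraries it passed the adjusted p only with the block (limma, 0.101 without and 0.0493 with it) and stayed under the fold threshold. Excluding both replicate 3 libraries its adjusted p by limma was 0.0431 unblocked and 0.0629 blocked. EIF2AK4, the kinase that binds uncharged tRNA, was at 15.4 to 15.6 RPKM in siNT and 13.2 to 16.1 RPKM in si*HKlincR1*. It is named here after its values were seen.

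Of 11 accessory genes of tRNA charging, the median log2 fold change was 0.10 and none was called by limma without the block, while voom called 1 lower. DTD2, which removes wrongly attached amino acids from tRNA, was at 6.50, 6.66 and 6.52 RPKM in siNT and 4.08, 4.84 and 3.51 RPKM in si*HKlincR1*, without overlap. It was called lower with the block (log2 fold change -0.66, adjusted p by limma 0.0945 unblocked and 0.0444 blocked), as were 0.809% of all tested genes. AARSD1, an editing protein related to AARS, and DTD1, a deacylase like DTD2, had log2 fold changes of 0.39 and 0.26, passing in neither fit. The 4 tested subunits of elongation factor 1 (EEF1A1, EEF1A2, EEF1B2 and EEF1D), which carries charged tRNA to the ribosome, had a median of 0.07. None was called in either fit or by voom, and none had an unadjusted p under 0.05. EEF1D had the largest change of these, 0.16, then EEF1A2 with 0.10 and EEF1B2 with 0.03, while EEF1G was listed at 0 in 5 of the 6 libraries and not tested.

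The siRNA against *HKlincR1* can lower other transcripts through its seed, which pairs with GTGTGCT. This site occurred in the 3′ UTR of 1 of the 39 members (2.56%) and of 1513 of 10761 tested genes for which one was annotated (14.1%). The member was KARS, with a single site at chr16:75661709-75661715 (GRCh37, minus strand), shown in capitals because it is the sole seed match among the synthetases: agggaattcttGTGTGCTgctttccatttg. KARS had a log2 fold change of 0.11, above 0 (adjusted p by limma 0.355 unblocked and 0.190 blocked). In the lists next to tRNA charging, EIF2AK1, PPP1R15B, EIF2S3, SEPSECS and TRIB3 each held 1 such site. Their log2 fold changes were -0.32 for EIF2AK1, which passed the blocked adjusted p, -0.14 for PPP1R15B, -0.03 for EIF2S3, 0.18 for SEPSECS and 0.65 for TRIB3, which was called higher with the block. The part of the seed in these values was not tested.

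Some members share exons with neighbouring genes, and whether reads were counted by strand is not given in the sources used here. In the GENCODE v44 annotation of GRCh37, 29.1% of the exon bases of AIMP2 lie opposite EIF2AK1, which itself changed by -0.32, and 12.4% of those of MARS lie opposite ARHGAP9 and DDIT3. DDIT3 was at 25.6, 24.4 and 11.5 RPKM in siNT and 45.1, 52.3 and 22.6 RPKM in si*HKlincR1* (log2 fold change 0.96, adjusted p by limma 0.302 unblocked and 0.0138 blocked), so reads of DDIT3 could enter the MARS value, and this was not tested. Opposite overlaps made up 18.1% of YARS2, 10.6% of WARS and 8.46% of HARS exon bases. On the same strand, 63.0% of VARS2, 48.2% of SARS2 and 18.8% of EEF1E1 exon bases are shared with readthrough or overlapping genes. SARS, EPRS, IARS and NARS had no such overlap in that annotation, while GARS had 1.80%, CARS 2.80% and AARS 0.42%. Reads were counted on Ensembl v74 genes, whose exons can differ. For IARS the length worked back from RPKM was 7401 bases, against 22418 exon bases in GENCODE v44. These shares may therefore not apply to the exons that were counted. The 20 cytosolic enzymes had 1353 to 24013 reads per library and the 16 mitochondrial enzymes 89 to 14888, with the lowest siNT means in SARS2 and PARS2.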

How the data were processed

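RNA was sequenced from 6 libraries of H460 cells (3 siNT, 3 si*HKlincR1*; strand-specific polyA libraries). The authors counted reads on Ensembl v74 genes and deposited RPKM values, a unit that corrects for gene length and library size. The submitters' processing notes name CASAVA 1.8.2 and featureCounts; the aligner is not given in the sources used here. RPKM values were used as deposited. Reads were worked back from them (100% of 152380 values above 0 came out whole within 0.001 read) and used only for depth and a voom alternative; the same recovery and the limma fit were tested on simulated data. Counting error alone is small for the cytosolic enzymes, at 1353 to 24013 reads per library, where the number of libraries limits the precision. It is larger for PARS2 (89 to 160 reads) and SARS2 (131 to 189 reads).

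The test was limma (version 3.58.1, R 4.3.3) with a mean-variance trend, applied to log2(RPKM + 0.1) of the 15451 genes whose mean reached 0.5 RPKM and adjusted over all of them by Benjamini-Hochberg. Fold changes of low genes are understated on this scale. Single ratios were compared by exact permutation tests. Same-numbered libraries had deviations from their group means that correlated across the 15451 genes at 0.142, 0.137 and 0.266 (other combinations -0.209 to 0.113). The numbers come from the replicate labels, and they were taken to pair the libraries because each of the 3 correlations was above 0.1. The combination of siNT replicate 1 with si*HKlincR1* replicate 2, at 0.113, was also above 0.1, so this rule does not single out true pairs. The labels do not say whether same-numbered libraries were prepared together. The fit without a block is the main one, and blocked values are printed beside it.

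The members and lists, and the promoter motif, were chosen with earlier results of these data known. Values in every library are given for the 8 cytosolic and 5 mitochondrial enzymes with the largest change, the scaffold proteins and any called member, and at most 3 genes of each other list with the largest change are named by the same rule. Other genes named were chosen after their values were seen. Older cytosolic names were matched to current ones ending in 1. Promoter sequences are from RefSeq. Alternatives changed the pseudocount, filter, scaling, trend, test and block and left out libraries; leaving out both replicate 3 libraries was added after seeing the data.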

Additional observations from a re-analysis of the deposited data

How the results depend on the processing

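Of the 39 genes, 33 kept the direction of their log2 fold change in every alternative run. The other 6, called in none of the alternatives, changed sign: leaving out 1 library in turn gave -0.051 to 0.067 for HARS, -0.006 to 0.109 for QARS, -0.106 to 0.015 for HARS2, -0.208 to 0.018 for LARS2, -0.023 to 0.039 for RARS2 and -0.078 to 0.124 for VARS2, and quantile normalization gave -0.00034 for RARS2. Among the ratios of cytosolic to mitochondrial enzymes it gave -0.028 to 0.126 for HARS, -0.029 to 0.121 for TARS and -0.027 to 0.110 for VARS.

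With the replicate block, 3 cytosolic enzymes were called higher, in place of 0, and 3 genes of the ATF4 pathway list, in place of 0. Leaving out 1 library in turn gave 0 to 6 cytosolic calls, and excluding both replicate 3 libraries gave 4, without or with the block. That exclusion also gave 4 calls in the ATF4 pathway list in both fits, and a median of 0.270 for the scaffold proteins, 0.110 for elongation factor 1 and 0.044 for the charging accessories. For the accessories the median was 0.071 with a pseudocount of 1, 0.044 with a filter at 2 RPKM and 0.078 to 0.131 leaving out 1 library in turn, and 1 gene was called lower with voom and with the block. Leaving out 1 library gave medians of 0.049 to 0.125 for elongation factor 1 and -0.071 to -0.016 for the eIF2 list, in which it gave 0 to 1 calls higher. The cause of these shifts was not tested. The block changed no other call among these genes. SARS2 was not tested with the filter at 2 RPKM. Over all tested genes, the calls higher and lower were 1 and 55 in all libraries, 79 and 125 with the block, 181 and 259 excluding both replicate 3 libraries, and 205 and 315 without si*HKlincR1* replicate 3. With the block and excluding both replicate 3 libraries, the calls over all tested genes were 87 higher and 102 lower.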
